A study of Mus musculus with 14 samples.

Results

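The genes described here are 10 components of TGF-beta, BMP and Id signaling, taken by symbol from a list of names: the ligand Tgfb1, the receptors Tgfbr1, Tgfbr2 and Tgfbr3, the signal-carrying Smad3, the inhibitory Smad6 and Smad7, and the Id genes Id1, Id2 and Id3. All 10 were among the 55450 gene identifiers of the count tables, and all 10 passed the filter on low counts that left 16878 genes. They were read in 14 RNA-seq libraries. These held LT-HSCs, long-term hematopoietic stem cells, sorted from bone marrow as cells with Sca-1, c-Kit and CD150 but without CD48 or lineage markers, which can rebuild blood after transplantation. The donors were female C57BL/6 mice older than 24 months, and each library was made from 5000 sorted cells. Selp high-derived LT-HSCs (3 libraries) and Selp low-derived LT-HSCs (3 libraries) were CD45.2+ donor cells recovered 16 weeks after 1000 Selp high or Selp low cells had been given to lethally irradiated recipients aged 10 to 16 weeks. Selp high LT-HSCs (4 libraries) and Selp low LT-HSCs (4 libraries) were sorted directly from 4 old mice by surface P-selectin, the adhesion protein that Selp encodes. The second sort was not gated on P-selectin, so "derived" names the input and not the surface level of the recovered cells.

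TGF-beta ligands bind a pair of type II and type I receptor kinases, which phosphorylate Smad2 and Smad3, while BMP ligands act through Smad1, Smad5 and Smad9. Both routes share Smad4 and induce the inhibitory Smads, and the Id genes are classic targets of the BMP route. Id proteins lack a DNA-binding region and hold E-proteins such as Tcf3 away from DNA, and in bone marrow TGF-beta is known for keeping stem cells out of the cell cycle.

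Promoter sequence from RefSeq (build GRCm38.p6) was searched for 7 of the 10 genes. Promoters of Id1, Tgfbr3 and Smad7 were not searched, so nothing is said about their motifs. The windows of Id2 and Id3 are shown because both genes fell together after transplantation, and that of Smad6 because it holds the full Smad palindrome while the gene was not called. Each runs from 250 bases before to 50 bases after the annotated start, 5′ to 3′ on the strand of the gene, and capitals mark a searched motif on either strand: the palindromic Smad box GTCTAGAC, the shorter Smad box GTCTG, which reads CAGAC on the opposite strand, or the GC-rich box GGCGCC. GTCTAGAC does not contain GTCTG on either strand.
Id2 (chr12:25096043-25096342, minus strand): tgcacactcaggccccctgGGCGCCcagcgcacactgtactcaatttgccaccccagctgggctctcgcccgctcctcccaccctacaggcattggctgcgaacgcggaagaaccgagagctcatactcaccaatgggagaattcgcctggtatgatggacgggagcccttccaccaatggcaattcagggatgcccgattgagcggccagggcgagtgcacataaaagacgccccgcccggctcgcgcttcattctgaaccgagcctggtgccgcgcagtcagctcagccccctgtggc
Id3 (chr4:136143572-136143871, plus strand): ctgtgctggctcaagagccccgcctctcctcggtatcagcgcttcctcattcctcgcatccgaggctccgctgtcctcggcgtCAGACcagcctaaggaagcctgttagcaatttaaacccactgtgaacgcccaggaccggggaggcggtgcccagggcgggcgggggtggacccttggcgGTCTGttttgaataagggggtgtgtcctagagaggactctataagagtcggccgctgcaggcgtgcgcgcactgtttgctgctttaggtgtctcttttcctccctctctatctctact
Smad6 (chr9:64022010-64022309, minus strand): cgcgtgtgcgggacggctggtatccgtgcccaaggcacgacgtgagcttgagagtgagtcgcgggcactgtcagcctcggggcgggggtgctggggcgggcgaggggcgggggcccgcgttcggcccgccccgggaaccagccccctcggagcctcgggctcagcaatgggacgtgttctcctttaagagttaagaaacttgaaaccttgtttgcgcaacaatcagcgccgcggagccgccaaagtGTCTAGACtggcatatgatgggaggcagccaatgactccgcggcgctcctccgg
The Id2 window held GGCGCC with its first base 231 bases before the start, a motif present in 11.9% of 32851 promoter windows of the same length. The Id3 window held GTCTG at 68 bases before the start and its reverse complement at 167 bases before, and 49.6% of windows hold that motif. The palindrome GTCTAGAC in the Smad6 window began 4 bases before the start, and 0.213% of windows hold it. Of the 7 genes searched, Tgfbr1 and Tgfbr2, which were not called, also held a motif: GGCGCC and GTCTG in separate windows of Tgfbr1, and GTCTG in that of Tgfbr2. Tgfb1 and Smad3 held none. These matches describe letters in the windows and were not tested as binding sites.

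Library depth ran from 22374794 to 38216775 reads assigned to genes, so each of the 10 genes was covered by between 36 reads (the lowest library of Id3) and 5605 reads (the highest of Tgfbr2). The LT-HSC markers of the sort were present in all libraries, with a summed level of 3023 to 4205 CPM (read counts scaled to a common library size) after transplantation and 4297 to 5223 CPM before it. Of these 10 markers 6 were called lower after transplantation and none higher, beside 14.6% and 12.9% of all genes. Their median log2 change was -0.42. Slamf1, which encodes CD150, led them (-1.05, edgeR adjusted p = 6.87e-06). Cd48, absent from the sorted phenotype, stood at 1.03 to 21.0 CPM. Selp RNA, the check of the sort, averaged 301 ± 15.7 CPM in Selp high-derived and 269 ± 23.7 CPM in Selp low-derived libraries (SD, n = 3 each). It averaged 701 ± 73.4 CPM in the Selp high libraries and 566 ± 96.7 CPM in the Selp low ones (SD, n = 4 each), so it too was lower after transplantation (log2 change -1.15, edgeR adjusted p = 3.54e-06). Between the Selp high and Selp low libraries Selp RNA was not called (log2 difference 0.31), with overlapping ranges of 615 to 764 CPM and 477 to 669 CPM. Nor was it called between the derived groups (log2 difference 0.16). Selp high replicate 4, Selp low replicate 4 and Selp low-derived replicate 2 stood apart from the rest in neutrophil markers, with summed levels of 19926, 14860 and 12417 CPM, against 433 to 6092 CPM in the other 11 libraries. The same 3 were also the highest in erythroid markers, at 1820.3, 2269.6 and 1632 CPM against 116 to 1024 CPM, so leaving them out removes both. Before transplantation the 4 Selp high and 4 Selp low libraries came from the same 4 mice, and equal replicate numbers were taken as 1 mouse because those libraries deviated together. The main fit took these libraries as separate and did not model the mouse. Its SEs and p-values for after against before transplantation therefore measure the spread between libraries, not between mice. The labels do not say whether the derived libraries came from separate recipients, so p-values that use those measure only the spread between libraries. The 14 libraries are bulk samples, in which fewer cells of a type and less RNA per cell cannot be told apart.

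The first question was how LT-HSCs recovered from young recipients differed from the old LT-HSCs that were not transplanted. Of the 10 genes, 4 were lower after transplantation, namely Id1, Id3, Id2 and Smad7, and none was higher. In the whole transcriptome 27.4% of 16878 genes were called in this comparison, 14.6% lower and 12.9% higher (edgeR quasi-likelihood test, Benjamini-Hochberg adjusted p under 0.05). The ligand, the 3 receptors, Smad3 and Smad6 did not pass the test. In GRCm38 the 4 genes lie on different chromosomes: Id1 at chr2:152736251-152737410 (plus strand), Id3 at chr4:136143497-136145755 (plus strand), Id2 at chr12:25093799-25097140 (minus strand) and Smad7 at chr18:75367529-75395935 (plus strand), and counts cover the exons of each whole gene. The median log2 change was -0.26 over the 10 genes and -0.01 over all genes tested. The 10 genes were chosen with earlier results of these data known, so their count and median are a description and not a test. Recipient age, irradiation, time, collection day, the CD45.2 gate and the P-selectin gate changed together with transplantation and cannot be told apart.

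Id1, an inhibitor of E-proteins induced by BMP signals, showed the largest change of the 10. It measured 4.34, 4.08 and 4.35 CPM in the Selp high-derived libraries and 4.50, 8.05 and 6.57 CPM in the Selp low-derived libraries, replicates 1 to 3. Before transplantation it measured 31.5, 6.47, 98.4 and 34.7 CPM in the Selp high libraries and 26.2, 24.0, 73.3 and 25.4 CPM in the Selp low libraries, replicates 1 to 4. Selp high replicate 2 was the single low library before transplantation and fell inside the range of the transplanted cells, while the Selp low library of the same mouse was among the other high ones. Replicate 3 was the highest library of both groups before transplantation. The change was -2.94 ± 0.49 (log2, SE), or 0.131 times the level before (edgeR adjusted p = 0.000565). Without Selp high replicate 2 the change was -3.13 and the ranges of the other libraries did not overlap.

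Id3, a close relative of Id1 that binds the same E-proteins, moved the same way at a lower level. It measured 1.78, 1.85 and 1.72 CPM in the Selp high-derived libraries and 2.45, 1.30 and 2.62 CPM in the Selp low-derived libraries. The Selp high libraries held 8.22, 2.36, 15.7 and 25.3 CPM and the Selp low libraries 5.43, 15.1, 12.9 and 7.92 CPM. Selp high replicate 2 was again the low library before transplantation and the only one to overlap with the transplanted cells. The change was -2.57 ± 0.44 (log2, SE), or 0.169 times the level before (edgeR adjusted p = 0.000701).

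Id2, the Id gene needed for innate lymphoid and NK cells, changed by less. It measured 28.6, 23.7 and 22.1 CPM in the Selp high-derived libraries and 21.4, 50.8 and 27.6 CPM in the Selp low-derived libraries. It measured 44.7, 50.1, 60.3 and 78.0 CPM in the Selp high libraries and 39.4, 38.9, 36.9 and 47.1 CPM in the Selp low libraries. Of the transplanted cells, 5 of 6 libraries lay below all 8 libraries before transplantation, and Selp low-derived replicate 2, 1 of the 3 libraries rich in neutrophil markers, lay inside their range. The change was -0.76 ± 0.18 (log2, SE; edgeR adjusted p = 0.00684), and without the 3 libraries it was -0.86 (edgeR adjusted p = 0.000241).

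Smad7, which blocks type I receptors and is induced by the signal it limits, was the only 1 of the 10 whose 6 libraries after and 8 libraries before transplantation did not overlap; 5.47% of all genes were lower without overlap. It measured 14.6, 15.9 and 10.5 CPM in the Selp high-derived libraries and 8.57, 18.6 and 16.9 CPM in the Selp low-derived libraries. It measured 20.7, 24.4, 33.5 and 64.7 CPM in the Selp high libraries and 25.9, 49.5, 26.2 and 34.3 CPM in the Selp low libraries. The highest transplanted library, Selp low-derived replicate 2, was just below the lowest library before transplantation, Selp high replicate 1. The change was -1.30 ± 0.28 (log2, SE; edgeR adjusted p = 0.00312). Smad6, the inhibitory Smad that acts mainly on the BMP route, ranged from 8.05 to 11.1 CPM after and 6.22 to 12.9 CPM before transplantation, and its 95% interval for the log2 change ran from -0.32 to 0.47.

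**Figure D1:**
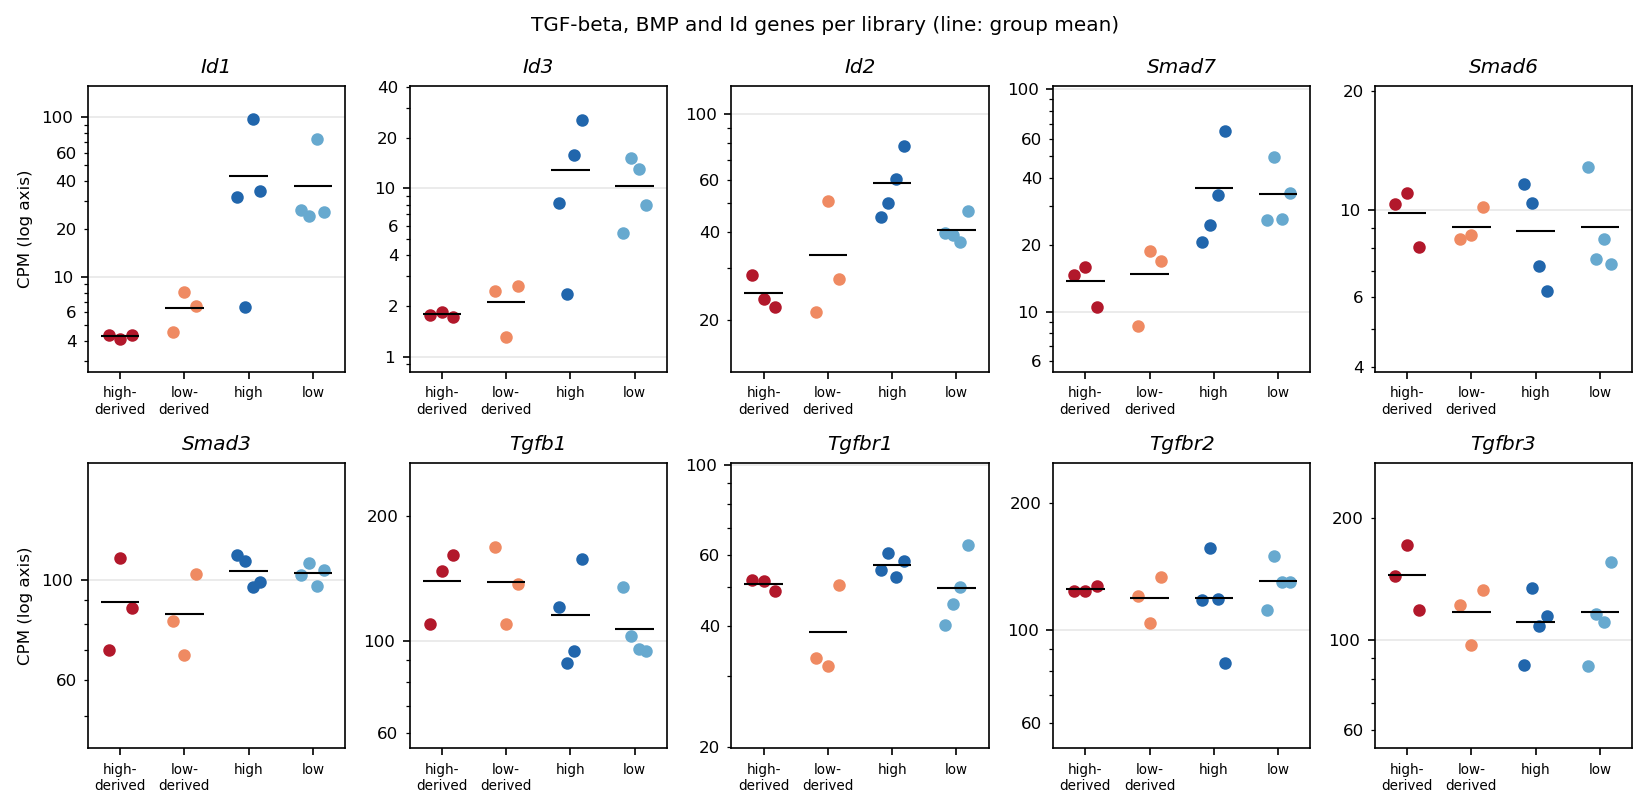
Level of each of the 10 genes in CPM (log axis) in the 14 libraries; columns are, left to right, Selp high-derived, Selp low-derived, Selp high and Selp low, points are libraries and lines are group means. Id1 and Id3 are low in all 6 transplanted libraries, with Selp high replicate 2 the single low library before transplantation, and the Smad7 libraries do not overlap between stages.

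Tgfb1, its receptors and Smad3 were not called. Tgfb1, the ligand, averaged 139 ± 26.5 CPM in Selp high-derived and 139 ± 29.1 CPM in Selp low-derived libraries (SD, n = 3 each), against 115 ± 31.3 CPM in the Selp high libraries and 107 ± 19.0 CPM in the Selp low ones (SD, n = 4 each). Its log2 change was 0.32 ± 0.15 (SE; edgeR adjusted p = 0.126), and it passed the threshold without the 3 libraries rich in neutrophil markers (0.46, edgeR adjusted p = 0.0233) and without Selp high replicate 4 alone (0.42, edgeR adjusted p = 0.0344). Its groups overlapped in the full set of libraries.

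Tgfbr1, the type I receptor kinase, ranged from 31.9 to 52.0 CPM after and 40.3 to 63.4 CPM before transplantation (log2 change -0.26 ± 0.12, SE; edgeR adjusted p = 0.128). Smad3, the transcription factor it phosphorylates, ranged from 68.1 to 111 CPM after and 96.2 to 113 CPM before (log2 change -0.26 ± 0.11, SE; edgeR adjusted p = 0.0920). Both passed the threshold without Selp low-derived replicate 3, at log2 changes of -0.39 for Tgfbr1 (edgeR adjusted p = 0.0178) and -0.36 for Smad3 (edgeR adjusted p = 0.0258). Smad3 also passed without Selp high-derived replicate 2 (-0.37, edgeR adjusted p = 0.0206), so these calls changed with single libraries. Tgfbr2, the ligand-binding type II receptor, had a 95% interval for the log2 change from -0.28 to 0.23. For Tgfbr3, the co-receptor betaglycan, that interval ran from -0.11 to 0.49. An annotated transcript on the same strand overlaps exons of Tgfbr3, but it held 177 reads against 46902 for Tgfbr3 over the 14 libraries.

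Per length of transcript the order of the 10 genes differed between the stages. After transplantation Tgfb1 was first at 27.6 ± 4.94 FPKM (CPM per kilobase of exon; SD, n = 6), followed by Tgfbr3, Smad3, Tgfbr2, Id2, Tgfbr1, Id1, Smad7, Smad6 and Id3. Neighbours in that order overlapped in range except Id2 over Tgfbr1 and Smad6 over Id3. Id1 was seventh of the 10 after transplantation at 4.58 ± 1.40 FPKM (SD, n = 6) and first before it at 34.5 ± 26.1 FPKM (SD, n = 8), followed by Tgfb1, Id2, Smad3, Tgfbr3, Tgfbr2, Tgfbr1, Smad7, Id3 and Smad6. Before transplantation only Tgfbr2 and Tgfbr1 were neighbours without overlap, so the first place of Id1 was within the spread of its libraries, from 5.58 to 84.8 FPKM. Id3 stood at 1.09 ± 0.28 FPKM (SD, n = 6) after transplantation and 6.49 ± 4.04 FPKM (SD, n = 8) before it.

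Within each input the same comparison was made separately. Within the Selp high input the same 4 genes fell in Selp high-derived cells, where 15.2% of all genes were called and 7.62% were lower. The log2 changes were -3.33 ± 0.71 for Id1, -2.85 ± 0.63 for Id3, -1.23 ± 0.26 for Id2 and -1.39 ± 0.39 for Smad7 (SE; edgeR adjusted p = 0.00603, 0.00761, 0.00599 and 0.0272). The libraries of these 4 genes did not overlap, as for 14.7% of all genes in that direction, and neither did those of Tgfbr1, at 48.9 to 52.0 CPM in Selp high-derived and 52.8 to 60.6 CPM in Selp high cells (edgeR adjusted p = 0.605). The Smad7 call was lost without Selp high replicate 4 (-0.94, edgeR adjusted p = 0.0686) or without Selp high-derived replicate 1, 2 or 3 (edgeR adjusted p = 0.0721, 0.0583 and 0.115). It was also lost without the 3 libraries rich in neutrophil markers (-0.94, edgeR adjusted p = 0.0646). With limma voom, 2 of the 4 calls held, and Id1 and Id3 were not called (adjusted p = 0.0665 and 0.0745).

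Within the Selp low input Id1 and Id3 fell in Selp low-derived cells, where 11.5% of all genes were called and 6.46% were lower. Their log2 changes were -2.54 ± 0.68 and -2.29 ± 0.62 (SE; edgeR adjusted p = 0.0266 and 0.0276). Smad7 changed by -1.21 ± 0.39 (SE; edgeR adjusted p = 0.0589) and Id2 by -0.29 ± 0.25 (SE; edgeR adjusted p = 0.515). The libraries of Id1, Id3 and Smad7 did not overlap, as for 11.9% of all genes in that direction. Both calls were lost without Selp low replicate 3 (Id1 -1.98, edgeR adjusted p = 0.0762; Id3 -2.16, edgeR adjusted p = 0.0646) and without Selp low-derived replicate 1, 2 or 3, with log2 changes of -2.35, -2.75 and -2.57 for Id1 and -2.41, -2.03 and -2.47 for Id3. Tgfbr1 passed the threshold without Selp low-derived replicate 3 (-0.61, edgeR adjusted p = 0.03485). Without Selp low replicate 2 Id3 alone was lost (-2.04, edgeR adjusted p = 0.0693). With limma voom neither Id1 nor Id3 was called (adjusted p = 0.0901 and 0.0875). Without the 3 libraries rich in neutrophil markers Id1 was just above the threshold (-2.90, edgeR adjusted p = 0.0505) and Id2 passed it (-0.65, edgeR adjusted p = 0.0277). With the replicate block 3207 genes were called, against 1936 without it. That block joined equal numbers before and after transplantation, which were not shown to share a mouse. Smad7 passed the threshold in 5 of 7 other settings: the replicate block (-1.06, edgeR adjusted p = 0.0356), DESeq2 (-1.21, adjusted p = 0.00990), no filter (edgeR adjusted p = 0.0379), only the groups compared (edgeR adjusted p = 0.0496) and without the 3 neutrophil-rich libraries (edgeR adjusted p = 0.0256). In the 7 fits that left out 1 library it did not pass (edgeR adjusted p from 0.0660). Whether the fall of Id2 differed between the inputs is answered by the difference of the Selp differences, given with those below.

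**Figure D2:**
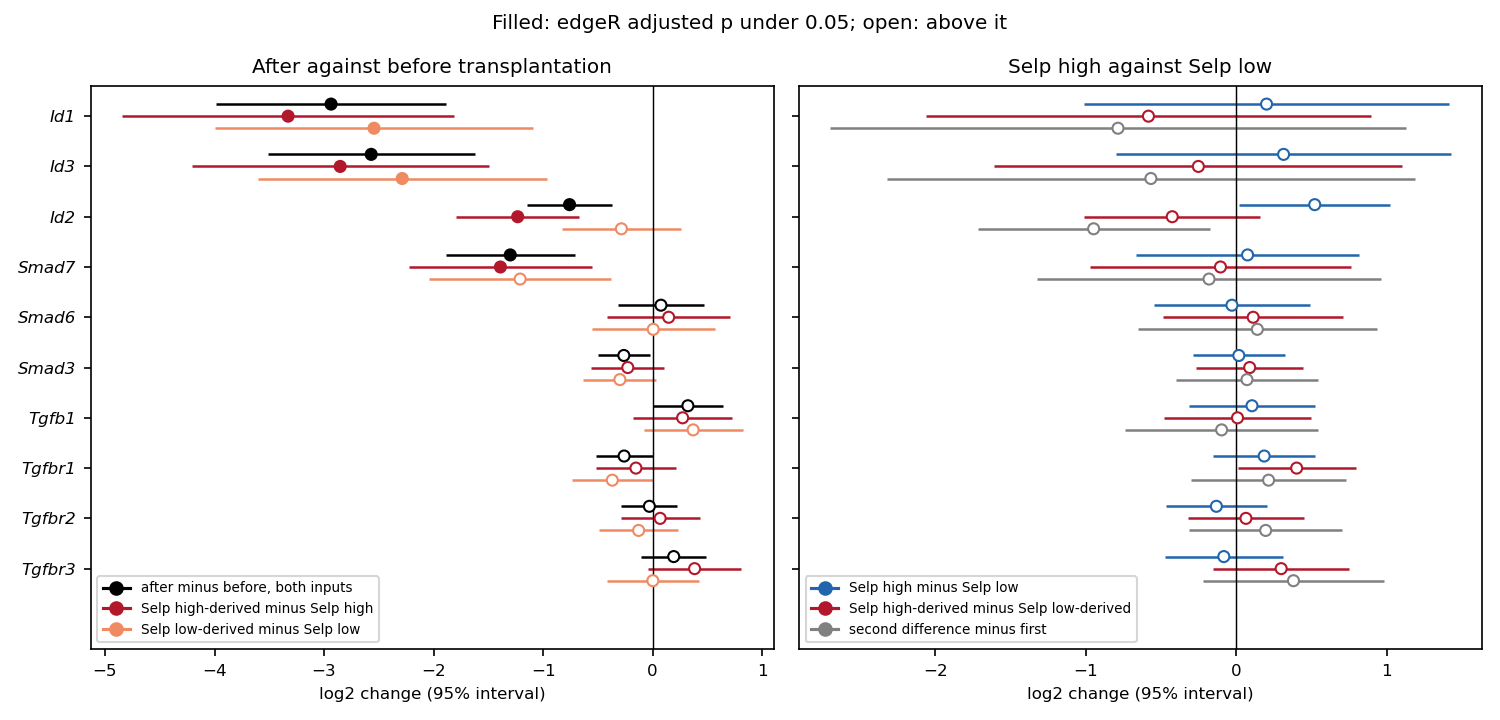
Log2 change with its 95% interval for each of the 10 genes, transplantation comparisons on the left and Selp comparisons on the right; filled points have an edgeR adjusted p under 0.05. In the left panel 4 genes are filled for both inputs together, 4 for the Selp high input and 2 for the Selp low input, and in the right panel none is filled.

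The second question was whether the genes differed between Selp high and Selp low cells. Selp high-derived and Selp low-derived LT-HSCs did not differ in any of the 10 genes by edgeR, where 0% of 16878 genes were called. Over all genes, 765 had an unadjusted p under 0.05 (4.53%), DESeq2 called 24 genes and limma voom 0, and none of the 10 was among those called by any tool. Tgfbr1 measured 50.9 ± 1.73 CPM in Selp high-derived and 38.5 ± 10.3 CPM in Selp low-derived libraries (SD, n = 3 each), with overlapping ranges. Its log2 difference of 0.40 ± 0.18 (SE) had an unadjusted p of 0.045 and an edgeR adjusted p of 0.98. Id1 was lower in all 3 Selp high-derived libraries than in any Selp low-derived library, without overlap, as were 5.55% of all genes. Its log2 difference was -0.58 with a 95% interval from -2.06 to 0.90, and its edgeR adjusted p was 0.98.

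Before transplantation the comparison of Selp high with Selp low cells also called none of the 10, and 0% of genes. Over all genes, 863 had an unadjusted p under 0.05 (5.11%), DESeq2 called 11 and limma voom 0. The fit with mouse as replicate block called 2 genes, and no fit called any of the 10. Id2 was the only 1 of the 10 higher in the Selp high cells of all 4 mice. The share of all genes that were higher in all 4 mice was not counted, so this agreement is a description. Id2 averaged 58.2 ± 14.6 CPM in the Selp high libraries and 40.6 ± 4.48 CPM in the Selp low ones (SD, n = 4 each). Its log2 difference was 0.52 ± 0.23 (SE; unadjusted p = 0.0426, edgeR adjusted p = 0.957; with the replicate block 0.51, adjusted p = 0.171), which does not pass the test. The other 9 genes were higher in the Selp high cells of between 1 and 3 of the 4 mice. For Id1 and Id3 mouse 2 ran opposite to the other 3 mice, with log2 differences of -1.88 and -2.65 in that mouse.

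The Selp difference itself was compared between the stages. None of the 10 genes was called, and 0% of 16878 genes (874, or 5.18%, with an unadjusted p under 0.05, 9 called by DESeq2, 0 by limma voom). Id2 had the smallest p of the 10, with a change of -0.95 ± 0.36 (log2, SE; unadjusted p = 0.0195, edgeR adjusted p = 0.879), and the value was -0.51 without Selp low-derived replicate 2. So a difference in the fall of Id2 between the inputs was not established by the test. For Id1 the 95% interval of this change ran from -2.70 to 1.13.

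Around the 10 genes, 81 other genes of the pathways in 6 lists were examined, of which 64 passed the filter on low counts. After transplantation 25 of these 64 were lower and 5 higher at the threshold, beside 14.6% and 12.9% of all genes. Their median log2 change was -0.35, against -0.01 over all genes tested. Within the Selp high input 21 were lower and 3 higher, beside 7.62% and 7.63% of all genes, and within the Selp low input 13 were lower and 2 higher, beside 6.46% and 5.01%. None was called between Selp high-derived and Selp low-derived cells or between Selp high and Selp low cells, nor in the difference of those differences. The lists were chosen with earlier results of these data known, so these counts are a description and not a test of the pathways.

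Known transcriptional targets were lower in 7 of 9 tested and higher in none, beside 14.6% and 12.9% of all genes. Their median log2 change was -2.58. Junb, an AP-1 transcription factor, averaged 112 ± 38.6 CPM in Selp high-derived and 199 ± 200 CPM in Selp low-derived libraries (SD, n = 3 each), against 1320.0 ± 166 CPM in the Selp high libraries and 1881 ± 419 CPM in the Selp low ones (SD, n = 4 each). Its log2 change was -3.40 ± 0.37 (SE; edgeR adjusted p = 2.25e-05). Exons of Prdx2 overlap Junb on the opposite strand, and reads there that fit both genes were left out as ambiguous. The cell-cycle inhibitors Cdkn1a and Cdkn1c, p21 and p57, fell by 3.06 and 1.04 on the log2 scale, and Gadd45b, a stress-response gene, fell by 2.58. Klf10, a zinc-finger repressor induced by TGF-beta, fell by 0.58.

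Of the ligands and the proteins that hold them latent, 8 of 19 tested were lower and 2 higher, beside 14.6% and 12.9% of all genes. Their median log2 change was -1.05. Bmp4, a BMP ligand, averaged 5.35 ± 0.60 CPM in Selp high-derived and 7.06 ± 2.80 CPM in Selp low-derived libraries (SD, n = 3 each), against 44.6 ± 14.2 CPM in the Selp high libraries and 41.4 ± 15.5 CPM in the Selp low ones (SD, n = 4 each). Its log2 change was -2.81 ± 0.27 (SE; edgeR adjusted p = 8.56e-06) and its libraries did not overlap. Gdf15, a stress-induced ligand, fell by 2.26 and Tgfb3, a TGF-beta ligand, fell by 1.05 on the log2 scale. Gdf3, a ligand of the same superfamily, rose by 1.51 ± 0.12 (log2, SE; edgeR adjusted p = 2.52e-06), with 64.6 to 114 CPM in Selp high-derived and 73.5 to 98.9 CPM in Selp low-derived libraries against 25.5 to 31.3 CPM in the Selp high libraries and 31.9 to 37.7 CPM in the Selp low ones. Nrros, which holds TGF-beta on the cell surface, changed by -0.12 (edgeR adjusted p = 0.396).

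Of 9 receptors and co-receptors tested, 3 were lower and none higher, beside 14.6% and 12.9% of all genes. Bmpr1a, a type I BMP receptor, averaged 8.59 ± 5.06 CPM in Selp high-derived and 6.65 ± 0.23 CPM in Selp low-derived libraries (SD, n = 3 each), against 37.2 ± 5.82 CPM in the Selp high libraries and 33.5 ± 3.25 CPM in the Selp low ones (SD, n = 4 each). Its log2 change was -2.23 ± 0.22 (SE; edgeR adjusted p = 1.11e-05). Rgmb, a BMP co-receptor, fell by 1.23 and Eng (endoglin) by 0.38 on the log2 scale. The Eng call was lost without Selp low-derived replicate 1 (-0.33, edgeR adjusted p = 0.0589) or Selp high-derived replicate 1 (-0.35, edgeR adjusted p = 0.0501), and Eng shares exon positions with Fpgs on the opposite strand. Acvrl1, a type I receptor, changed by -1.46 (edgeR adjusted p = 0.0538).

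Of the 6 Smads and partners tested, 1 was lower and 1 higher, beside 14.6% and 12.9% of all genes. Trim33, a ubiquitin ligase that binds Smads, rose by 0.66 and Zfyve9, which anchors Smads at receptors, fell by 0.86. Smad1 changed by -0.28 (edgeR adjusted p = 0.0548). It passed the threshold in 4 of 6 other settings, among them the replicate block (-0.37, edgeR adjusted p = 0.00100), and in 3 of 14 fits that left out 1 library. Smad2 changed by 0.15 (edgeR adjusted p = 0.0779) and Smad4 by -0.04 (edgeR adjusted p = 0.691). Of 13 inhibitors tested, 3 were lower and 1 higher, beside 14.6% and 12.9% of all genes. Bambi, a decoy receptor, fell by 1.28, Nbl1, a secreted BMP antagonist, fell by 2.90 and Skil, a Smad co-repressor, fell by 1.64. Twsg1, a secreted BMP-binding protein, rose by 0.28 (edgeR adjusted p = 0.0462), a call that was lost in 11 of 14 fits that left out 1 library. Fkbp1a, which binds type I receptors, changed by 0.22 (edgeR adjusted p = 0.0547).

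In the Id and E-protein network 3 of 8 tested were lower and 1 higher, beside 14.6% and 12.9% of all genes. Id4, the remaining Id gene, fell by 2.57 on the log2 scale and was near the limit of detection, with 0.0925 ± 0.107 CPM in Selp high-derived and 0.104 ± 0.0288 CPM in Selp low-derived libraries (SD, n = 3 each), against 0.695 ± 0.468 CPM in the Selp high libraries and 0.503 ± 0.188 CPM in the Selp low ones (SD, n = 4 each). Hes1, a Notch-responsive repressor, fell by 2.37 on the log2 scale and Tal1, a stem cell transcription factor, by 0.35. Tcf3, an E-protein bound by Id proteins, rose by 0.26 (edgeR adjusted p = 0.0271; with the replicate block 0.23, adjusted p = 0.0603). Tal1 and Tcf3 lost their calls in 4 and 6 of 14 fits that left out 1 library, at adjusted p values up to 0.0540 and 0.0890. Gfi1, a transcriptional repressor active in the neutrophil lineage and in stem cells, changed by -0.07 (edgeR adjusted p = 0.919).

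**Figure D3:**
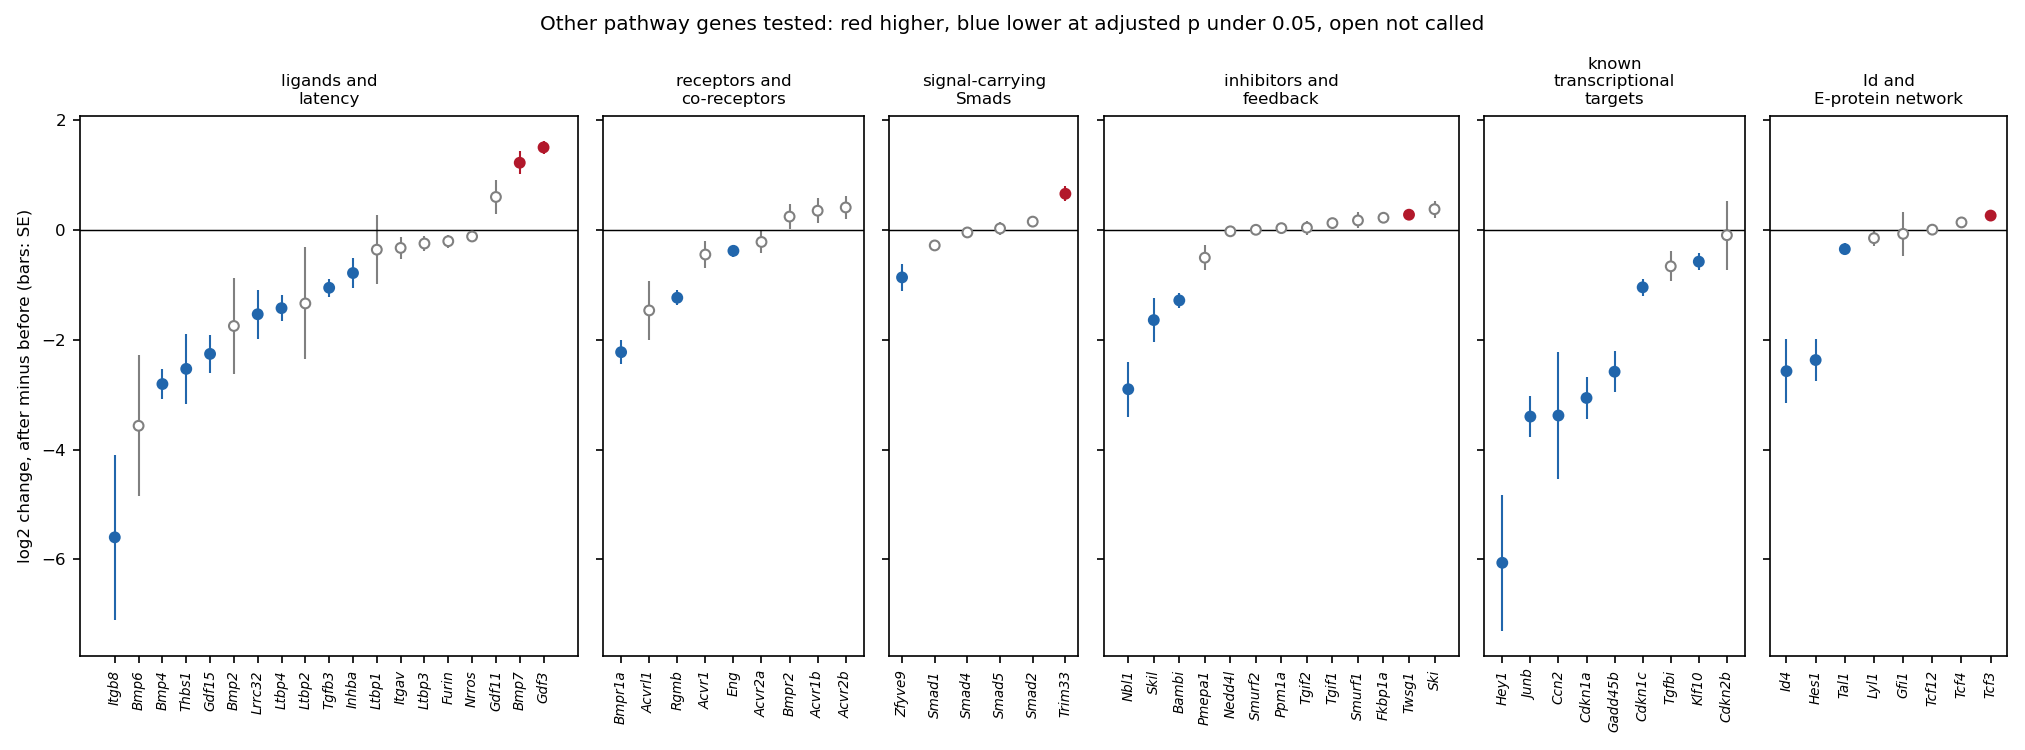
Log2 change after minus before transplantation (bars: SE) of the 64 tested genes of the 6 pathway lists, from an edgeR fit on all 14 libraries. Filled blue points (25) are lower and filled red points (5) higher at an adjusted p under 0.05, and open points were not called.

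Markers of other cell types moved with the stage for some lists. The summed level of 9 endothelial markers was 56.9 to 80.5 CPM after transplantation and 141 to 261 CPM before it, and 4 of the 7 tested were called lower. The difference was carried by Cldn5, Kdr and Plvap, of which Cldn5 was 0.659 to 5.62 CPM after and 37.9 to 109 CPM before transplantation, while Cdh5 was at most 1.22 CPM and Sox17 was at most 0.242 CPM in any library. The summed level of 8 T and NK cell markers was 14.1 to 41.1 CPM after and 116 to 305 CPM before transplantation, and Klrb1c, the 1 marker called of 6 tested, carried it. Beside these marker counts, 14.6% of all genes tested were called lower after transplantation. The summed levels of the other 7 lists of blood and stromal cell types overlapped between the stages. The part of these markers, and of the fall in the LT-HSC markers, in the fall of the Id genes and Smad7 was not tested. The 12 neutrophil markers ranged from 515 to 12417 CPM after and 433 to 19926 CPM before transplantation, and leaving out the 3 libraries with the most left the 4 calls in place, with log2 changes of -3.16 for Id1, -2.22 for Id3, -0.86 for Id2 and -1.18 for Smad7.

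The genes whose pattern over the 14 libraries lay closest to each Id gene were named by the root mean square difference of log2 CPM, each gene centred on its own mean, among 11356 protein-coding genes. For Id1 these were Klf4 (0.444), Gadd45b (0.613) and Sik1 (0.666), and for Id3 they were Bhlhe40 (0.439), Gadd45b (0.511) and Gdf15 (0.520). For comparison, the libraries of Id1 and Id3 themselves varied by 1.54 and 1.37 around their means. For Id2, which varied by 0.543, the closest were Mapre3 (0.199), Mllt3 (0.244) and Ythdc1 (0.250). Klf4 averaged 1.48 CPM in Selp high-derived and 2.60 CPM in Selp low-derived libraries, against 16.6 CPM in the Selp high libraries and 13.4 CPM in the Selp low ones. Bhlhe40 averaged 28.7 CPM in Selp high-derived and 32.8 CPM in Selp low-derived libraries, against 222 CPM in the Selp high libraries and 168 CPM in the Selp low ones. This ranking describes these libraries, which share the split by stage, and carries no test.

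**Figure D4:**
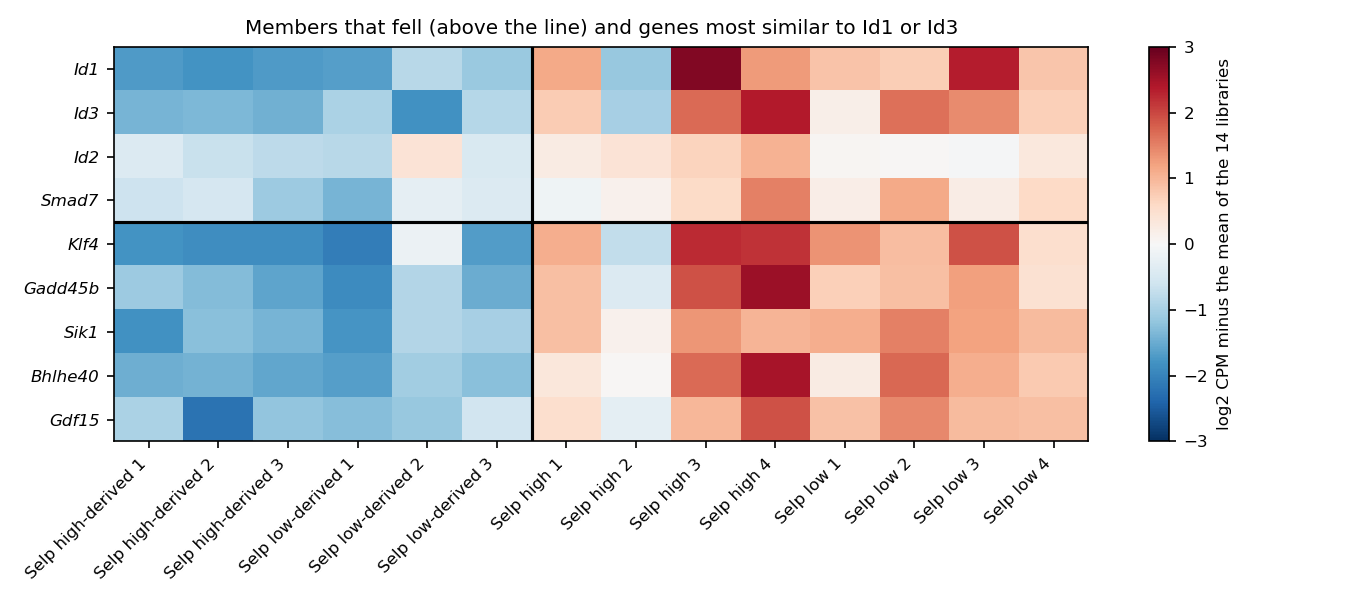
Log2 CPM minus the mean over the 14 libraries for the 4 genes that fell and the 5 genes closest in pattern to Id1 or Id3; columns are libraries, the 6 transplanted ones left of the vertical line and the 8 others right of it. Selp high replicate 2 is below the mean (blue) for Id1, Id3, Klf4, Gadd45b and Gdf15, where the other 7 libraries before transplantation are above it.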

How the data were processed

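RNA-seq gene counts were deposited for 14 libraries; per the labels, cDNA came from template switching (SMART-Seq v4) and libraries from Nextera XT. The authors aligned reads to GRCm38 with STAR 2.7.0d, and FastQC 0.11.9 and Picard 2.23.0 are also named, per the submitters' processing notes. No source used here gives the annotation release; GENCODE M21 gave symbols and exon lengths for all 55450 identifiers. Of the count columns deposited by the authors, the unstranded one was used. The stranded columns summed to nearly equal totals (ratio 0.989 to 0.999), so antisense reads cannot be told apart. Reads not assigned to genes were left out: unmapped 3.35% to 5.06%, multimapping 9.93% to 13.4%, without a gene 3.37% to 5.13% and ambiguous 4.20% to 4.79% relative to the column total. Replicate libraries all differed by more than sampling noise (chi-square per gene 18.8 to 150).

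Counts were filtered (edgeR 4.0.16 filterByExpr, minimum count 10), scaled by TMM (factors 0.963 to 1.04) and fitted in 1 quasi-likelihood model of the 4 groups (R 4.3.3; common biological coefficient of variation 0.322), with Benjamini-Hochberg adjustment over 16878 genes and a threshold of 0.05; log2 CPM used a prior count of 2, and FPKM divided CPM by summed exon length. The code was tested on simulated data. The labels name 4 mice for the 8 libraries before transplantation, where same-numbered libraries deviated together and were taken as pairs (r 0.29 to 0.53; others -0.40 to 0.05); after it they did not (-0.05 to 0.02). Alternatives were DESeq2 1.42.0, limma 3.58.1 voom, RLE factors, no filter, only the groups compared, a replicate block, each library left out, and, chosen after seeing the data, leaving out 3 neutrophil-rich libraries. Named pathway genes were, per list, up to 4 with the smallest p after minus before and the 2 with the highest mean FPKM. The genes and lists were chosen with earlier results of these data known.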

Additional observations from a re-analysis of the deposited data

Results flagged for a closer look

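Id1 in Selp low replicate 3 was far above the other libraries of its group, at 73.3 CPM against 24.0 to 26.2 CPM in the other 3 Selp low libraries. The gap to the nearest library was 0.955 of the range of the group, above the critical value of Dixon's test for 4 libraries. Of 20 groups of 4 looked at, chance alone marks about 1 in 20. The Selp high library of the same mouse was also the highest of its group for Id1, at 98.4 CPM.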

How the results depend on the processing

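The calls of Id1, Id3, Id2 and Smad7 after minus before transplantation held under every setting tried and without each of the 14 libraries in turn, with log2 changes of -3.16 to -2.53 for Id1, -2.75 to -2.22 for Id3, -0.98 to -0.64 for Id2, -1.41 to -1.07 for Smad7. Equal replicate numbers before transplantation were taken as the same mouse. The fit with the replicate block called 2 genes for Selp high minus Selp low (0 without) and 2 for Selp high-derived minus Selp low-derived (0 without). It called none of the 10 genes in either Selp comparison. In the comparisons of stage the block joined equal numbers before and after transplantation, which were not shown to share a mouse. There it called 3207 genes for Selp low-derived minus Selp low. Among the genes named, the block changed the calls of Smad7 within the Selp low input, Tcf3 and Smad1, and no other call. Over the 6 other settings for after minus before, Smad1 passed the threshold in 4, and Acvrl1, Smad2 and Fkbp1a in 2 each. Twsg1 and Tcf3 lost their calls in 2 each. DESeq2 called 11, 24 and 9 genes for Selp high minus Selp low, Selp high-derived minus Selp low-derived and the change of the Selp difference, where edgeR called 0, and 1 gene was called for Selp high minus Selp low with no filter on low counts. With limma voom 2 of the 10 genes were called within the Selp high input and 0 within the Selp low input. Without 1 library at a time the calls ranged from 1423 to 2488 genes within the Selp high input and from 803 to 2723 within the Selp low input, where 0 to 2 of the 10 genes were called. The other changes of sign were all in values that were not called, and their cause was not tested. Under limma voom the values for Selp high minus Selp low were Smad7 -0.047, Id1 -0.14, Id3 -0.050, and the values for after minus before were Gfi1 0.15. With the replicate block the values for Selp high minus Selp low were Id1 -0.10, and the values for Selp high-derived minus Selp low-derived were Tgfb1 -0.0049, and the values for after minus before were Smad6 -0.013, and the values for Selp low-derived minus Selp low were Smad6 -0.079. Without the 3 libraries rich in neutrophil markers the values for Selp high minus Selp low were Tgfb1 -0.14, Tgfbr2 0.0048, Tgfbr3 0.070, Smad6 0.019, Smad7 -0.37, Id3 -0.35. Also without them the values for Selp high-derived minus Selp low-derived were Tgfb1 -0.13, Tgfbr2 -0.026, Smad3 -0.040, Smad7 0.11, Id2 0.018. Also without them the values for the change of the Selp difference were Tgfb1 0.0032, Tgfbr1 -0.031, Tgfbr2 -0.031, Smad3 -0.091, Smad7 0.48. Also without them the values for after minus before were Smad6 -0.021, Smad4 0.0045. Also without them the values for Selp high-derived minus Selp high were Tgfbr2 -0.069. Also without them the values for Selp low-derived minus Selp low were Smad6 -0.051. With only the groups compared the values for Selp high-derived minus Selp low-derived were Tgfb1 -0.0071. With RLE factors the values for Selp low-derived minus Selp low were Tgfbr3 -0.0037. With no filter the values for Selp low-derived minus Selp low were Tgfbr3 -0.014, Smad6 -0.0096. With DESeq2 the values for Selp low-derived minus Selp low were Tgfbr3 -0.0037. Leaving out 1 library at a time, the values for Selp high minus Selp low spanned Tgfb1 -0.081 to 0.24, Tgfbr2 -0.29 to 0.0052, Tgfbr3 -0.20 to 0.086, Smad3 -0.021 to 0.056, Smad6 -0.19 to 0.19, Smad7 -0.37 to 0.32, Id1 -0.62 to 0.76, Id3 -0.24 to 0.66. Over the same exclusions the values for Selp high-derived minus Selp low-derived spanned Tgfb1 -0.13 to 0.17, Tgfbr2 -0.028 to 0.14, Smad3 -0.11 to 0.24, Smad7 -0.38 to 0.10, Id2 -0.66 to 0.016. Leaving out 1 library at a time, the values for the change of the Selp difference spanned Tgfb1 -0.24 to 0.090, Smad3 -0.13 to 0.22, Smad6 -0.081 to 0.30, Smad7 -0.45 to 0.27, Id1 -1.35 to 0.035. Over the same exclusions the values for after minus before spanned Tgfbr2 -0.098 to 0.040, Gfi1 -0.21 to 0.12. Leaving out 1 library at a time, the values for Selp high-derived minus Selp high spanned Tgfbr2 -0.068 to 0.21. Over the same exclusions the values for Selp low-derived minus Selp low spanned Tgfbr3 -0.12 to 0.17, Smad6 -0.085 to 0.23. The count tables limit Id3 and Id1 most, and their lowest libraries held 36 and 97 reads. With 3 or 4 libraries a group, the Selp comparisons leave wide intervals.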
